A study of Mus musculus with 8 samples.

Results

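The genes of the skeletal muscle sarcomere and of calcium release in muscle were followed in mouse skin by RNA sequencing. Their 42 members were chosen by gene symbol, as thick filament, thin filament, Z-disc, M-band, calcium handling and energy genes of fast and slow muscle fibres. All 42 were found among the 24612 genes of the deposited table, and all 42 passed the filter on low values. The 8 libraries came from skin homogenates of male C57BL/6 J mice whose treatment began at 6 weeks of age and ran for 21 days. The PBS group (n = 2, libraries PBS 2 and PBS 3) received 0.1 mL phosphate-buffered saline under the skin. The Bleomycin group (n = 3, Bleomycin 2, 3 and 4) received 0.1 units of bleomycin by the same route, an agent that breaks DNA and is used to model skin fibrosis in mice. The Celastrol group (n = 3, Celastrol 2, 3 and 5) received celastrol, a triterpene from the thunder god vine, into the peritoneum each day. The labels give its dose as 1 or 2 mg/kg without saying which mouse received which, and without saying whether these mice also received bleomycin. They also do not say that each library is a separate mouse, so the p-values measure the spread between these libraries, which may be technical.

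A skeletal muscle fibre is filled with sarcomeres, in which thick filaments of myosin pull on thin filaments of actin between the Z-discs. Contraction starts when the ryanodine receptor releases calcium from the sarcoplasmic reticulum, the calcium binds troponin C, and the troponin and tropomyosin complex uncovers the myosin sites on actin. Fast and slow fibres use different genes for most of these parts. In mice, a sheet of striated muscle, the panniculus carnosus, lies beneath the dermis and can be taken with a piece of skin. A bulk library cannot tell fewer muscle fibres from less muscle RNA per fibre.

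The values are deposited normalized read counts, scaled by the authors to a size factor per library. The sum over all genes was 22900000 to 26400000 per library, and the depth estimated from the size of 1 read was 14900000 to 37100000 reads. Celastrol 2 stood apart from the other libraries: on the principal component that held 32.7% of the variance it lay at 237.5, against -57.31 to -3.625 for the other 7. The marker genes chosen for the muscle members, Myh4, Tnni2 and Mybpc1, were present in all 8 libraries, at no less than 1864. For each gene below, values are given in the order PBS 2 and 3, Bleomycin 2, 3 and 4, and Celastrol 2, 3 and 5. Log2 changes are differences of log2(value + 1) with their standard error (SE) from limma over all 8 libraries, and a gene rose or fell where its Benjamini-Hochberg adjusted p over 23185 genes was under 0.05.

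Sequences that bear on how the members are measured and on where they start are shown before the values. The myosin heavy chain genes Myh2, Myh1 and Myh4 stand next to each other on chromosome 11 and were copied from a common ancestor, while Myh7, the slow and cardiac form, lies on chromosome 14. Their coding sequences in GENCODE M21 (GRCm38) are 5826 bases in Myh1, 5826 in Myh2, 5817 in Myh4 and 5805 in Myh7. One stretch of 140 bases is identical in Myh1, Myh2 and Myh4 (bases 1549 to 1688 from the A of the start codon), and its counterpart in Myh7 (bases 1540 to 1679) is 82.1% identical, with 25 mismatches. Capitals mark the 25 positions at which Myh7 differs.
Myh1, Myh2 and Myh4: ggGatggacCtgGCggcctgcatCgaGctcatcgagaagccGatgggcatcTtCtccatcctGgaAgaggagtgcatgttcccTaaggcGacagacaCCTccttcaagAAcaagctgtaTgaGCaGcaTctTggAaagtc
Myh7: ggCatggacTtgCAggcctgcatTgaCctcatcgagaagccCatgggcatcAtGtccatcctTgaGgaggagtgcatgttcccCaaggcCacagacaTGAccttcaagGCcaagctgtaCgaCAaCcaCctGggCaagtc
A read that falls wholly in the first of these lines could have come from any of the 3 fast genes. Of all windows of 100 bases in the Myh1 coding sequence, 7.91% also occur in Myh2 and 2.32% in Myh4, and none occurs in Myh7. The sources used here do not give the read length or the way shared reads were counted.

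Upstream sequence was taken from RefSeq (GRCm38.p6) for the 32 of the 42 members found there. The 250 bases before the start are shown for 6 members: the fast myosin genes Myh4 and Myh1, the myosin-binding protein gene Mybpc1 and the titin gene Ttn, which rose in the celastrol libraries, and the actin gene Acta1 and the slow myosin gene Myh7, which did not pass the test in any comparison. Capitals mark matches on either strand to the E-box CANNTG, the MEF2 box, the CArG box, the MCAT element CATTCC and the TATA box TATAAA, each searched on its own, so that matches can overlap. These elements are known from muscle promoters, where the MyoD family, MEF2, SRF and TEAD proteins bind the first 4 of them.
Myh4 (chr11:67237562-67237811, plus strand): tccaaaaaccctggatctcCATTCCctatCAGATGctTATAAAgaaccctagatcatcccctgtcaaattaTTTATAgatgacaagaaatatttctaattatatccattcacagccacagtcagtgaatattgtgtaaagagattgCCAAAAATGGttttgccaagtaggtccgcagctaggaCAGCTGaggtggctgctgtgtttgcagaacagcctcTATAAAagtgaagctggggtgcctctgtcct
Myh1 (chr11:67199852-67200101, plus strand): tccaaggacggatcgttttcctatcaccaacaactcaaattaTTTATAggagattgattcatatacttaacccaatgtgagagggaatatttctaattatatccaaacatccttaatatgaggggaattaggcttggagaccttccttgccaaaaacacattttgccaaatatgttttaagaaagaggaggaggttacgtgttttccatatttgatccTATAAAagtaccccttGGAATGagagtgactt
Mybpc1 (chr10:88605153-88605402, minus strand): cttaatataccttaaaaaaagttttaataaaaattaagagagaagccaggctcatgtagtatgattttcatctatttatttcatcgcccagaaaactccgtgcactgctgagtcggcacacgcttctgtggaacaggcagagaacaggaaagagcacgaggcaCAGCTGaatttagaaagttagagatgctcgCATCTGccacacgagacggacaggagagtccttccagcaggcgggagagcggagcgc
Ttn (chr2:76982548-76982797, minus strand): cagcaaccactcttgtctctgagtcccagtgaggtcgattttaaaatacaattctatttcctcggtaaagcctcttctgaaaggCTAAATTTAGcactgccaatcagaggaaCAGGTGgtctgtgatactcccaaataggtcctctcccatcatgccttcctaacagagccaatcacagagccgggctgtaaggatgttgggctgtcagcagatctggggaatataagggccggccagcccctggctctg
Acta1 (chr8:123894776-123895025, minus strand): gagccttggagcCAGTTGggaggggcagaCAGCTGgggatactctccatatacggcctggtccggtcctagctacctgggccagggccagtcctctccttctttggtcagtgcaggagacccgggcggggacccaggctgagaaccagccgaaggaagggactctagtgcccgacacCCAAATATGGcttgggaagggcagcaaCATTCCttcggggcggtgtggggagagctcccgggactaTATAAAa
Myh7 (chr14:54994627-54994876, minus strand): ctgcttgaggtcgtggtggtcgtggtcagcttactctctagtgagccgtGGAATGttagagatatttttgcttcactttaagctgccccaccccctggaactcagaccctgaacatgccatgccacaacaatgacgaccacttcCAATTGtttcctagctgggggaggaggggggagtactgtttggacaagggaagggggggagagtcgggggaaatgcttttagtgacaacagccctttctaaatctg
The RefSeq starts of the 6 windows shown lie 0 to 217 bases from the gene start in GENCODE. Some of the windows not shown lie much farther away, as with Xirp2 (272168 bases), Myl3 (21817), Tnni1 (19987), Myom1 (16924) and Myl2 (7762). Of the 32 member windows, 27 (84.4%) held an E-box, against 66.2% of all 32851 windows of that length. A CArG box was found in 5 (15.6%), against 1.47% of all windows, and an MEF2 box in 2 (6.25%), against 0.51%. The MCAT element occurred in 10 (31.2%), against 12.6%, and the TATA box in 6 (18.8%), against 12.4%. The windows of Myh1, Myh2, Ldb3, Ryr1 and Pvalb held no E-box, and those of Myh4, Acta1, Myl3 and Myom1 held both an E-box and a CArG box. These matches describe the letters in the window only.

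The question of the design was how skin differed among PBS, bleomycin and celastrol. The 42 muscle genes together made up 2.86% and 2.78% of all normalized reads in PBS 2 and 3, 5.63%, 3.91% and 4.49% in Bleomycin 2, 3 and 4, and 7.52%, 5.97% and 8.61% in Celastrol 2, 3 and 5. The group shares were 2.82% ± 0.06 (SD, n = 2), 4.68% ± 0.87 (n = 3) and 7.37% ± 1.33 (n = 3), and no library of one group lay within the range of another. Titin, Ttn, made up 64.3% to 71.2% of the members' sum and was the gene with the highest or second highest value of the table in every library. These values are not corrected for length, and Ttn has 116825 exonic bases. Without Ttn the members held 1.02% and 0.878% in PBS, 1.88%, 1.17% and 1.38% in Bleomycin and 2.17%, 1.89% and 2.49% in Celastrol, with Bleomycin 2 and Celastrol 3 nearly level. The summed level of the members was 1.64-fold higher in Bleomycin than in PBS, 2.82-fold higher in Celastrol than in PBS and 1.72-fold higher in Celastrol than in Bleomycin, as ratios of group means with no test.

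**Figure D1:**
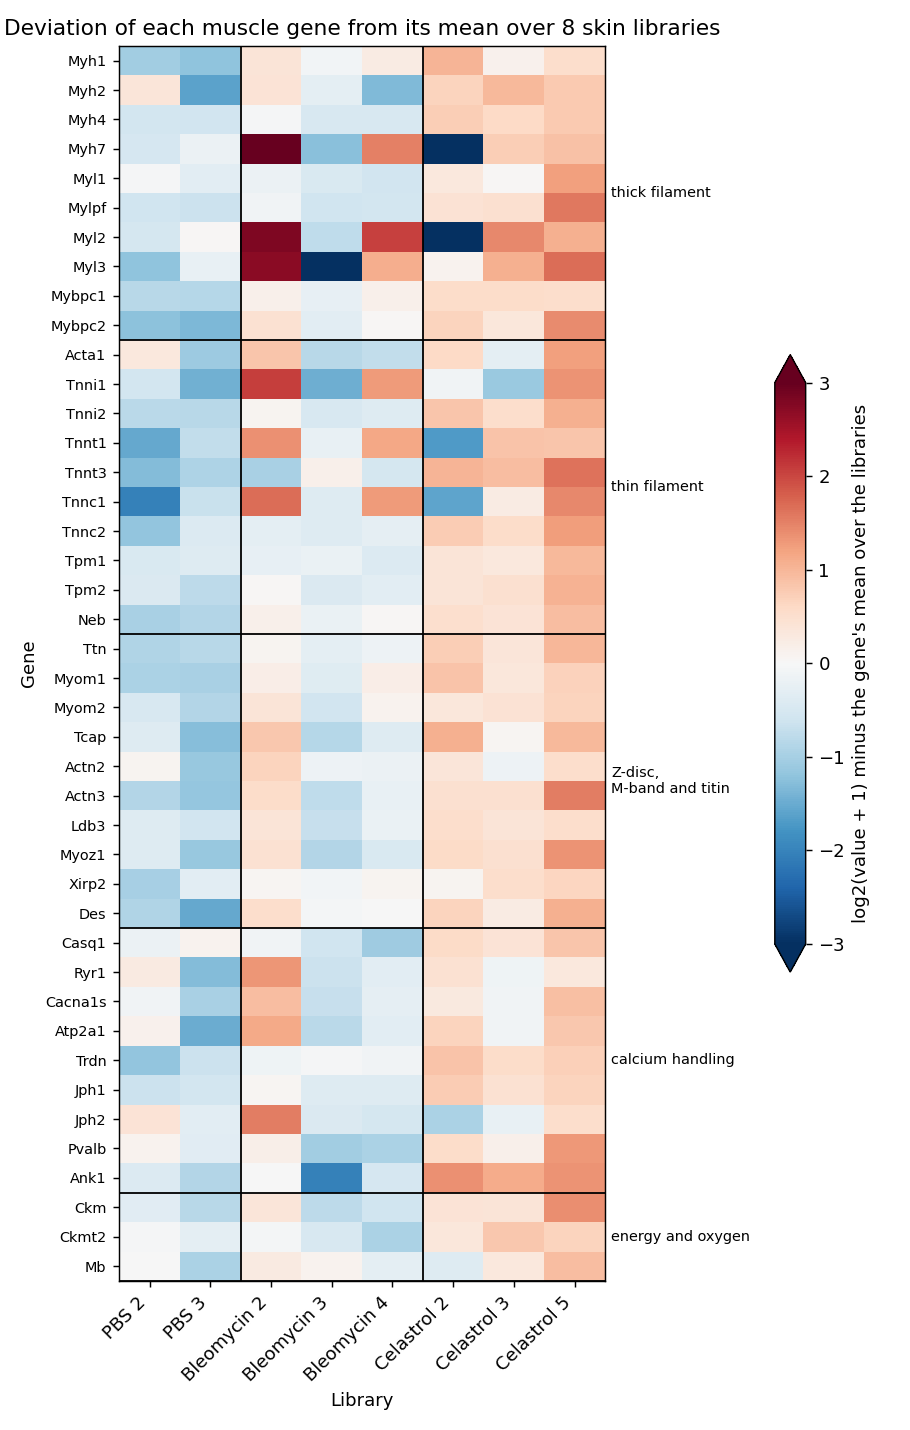
Each row is 1 of the 42 muscle genes, ordered by role, and each column 1 library. The colour gives log2(value + 1) minus the gene's mean over the 8 libraries, so red cells are above and blue cells below that mean. PBS 3 is blue for most genes and Celastrol 5 red for most. The slow fibre genes Myh7, Myl2, Tnnt1 and Tnnc1 follow another pattern, red in Bleomycin 2 and 4 and blue in Celastrol 2.

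Between celastrol and PBS, 16 of the 42 members rose and none fell, with 26 not past the threshold. Over all genes tested, 0.824% rose and 0.543% fell. The median log2 change of the members was 1.25, against -0.07 over all genes. In 30 members every celastrol library lay above both PBS libraries, which held for 13.2% of all genes. The count of 16 depended on single libraries: it was 5 without PBS 2, 2 without PBS 3, 10 without Celastrol 2 and 2 without Celastrol 5. Without PBS 2 the called members were Des, Mybpc1, Myom1, Tnni2 and Trdn, without PBS 3 Tnnc2 and Trdn, and without Celastrol 5 Mybpc1 and Trdn. Leaving out Celastrol 2, the library that stood apart, ended the calls on Actn3, Jph1, Tnnt3, Tpm1, Tpm2 and Ttn. Calls over all genes fell too: 0.444% rose without Celastrol 2 and 0.109% without Celastrol 5. The members' median log2 change was 1.37 and 1.05 in those fits, 1.38 without PBS 2 and 1.13 without PBS 3. The triadin gene Trdn was called in all 8 fits without 1 library, and Mybpc1 in 7 of them.

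Between bleomycin and PBS, 1 of the 42 members, Myh1, rose and none fell. Over all genes, 0.453% rose and 0.224% fell. The members' median log2 change was 0.60, against -0.000715 over all genes, and 37 of the 42 changes were above 0. Leaving out PBS 3 lowered the members' median to 0.32 and leaving out Bleomycin 2 lowered it to 0.29, and 8 of the 42 changes took the other sign when 1 library was left out. All 3 bleomycin libraries lay above both PBS libraries in 17 members, against 12% of all genes. The call on Myh1 was at the edge of the threshold, and no member was called without PBS 2, PBS 3, Bleomycin 2, Bleomycin 3, Bleomycin 4 or Celastrol 5.

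Between celastrol and bleomycin, no member and no other gene passed the threshold with limma (0% in either direction), and the smallest adjusted p among the members was 0.975. At an unadjusted p under 0.05, 24 of the 42 members were reached, all higher in celastrol, against 898 of the 23185 genes. The median log2 difference of the members was 0.78, against -0.04 over all genes, and 0.51 without Bleomycin 3. In 21 members the 3 celastrol libraries all lay above the 3 bleomycin libraries, against 4.13% of all genes, and no member showed the reverse order, which held for 4.59% of all genes. The comparisons with PBS share the same 2 PBS libraries, so a low or high value there enters both.

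**Figure D2:**
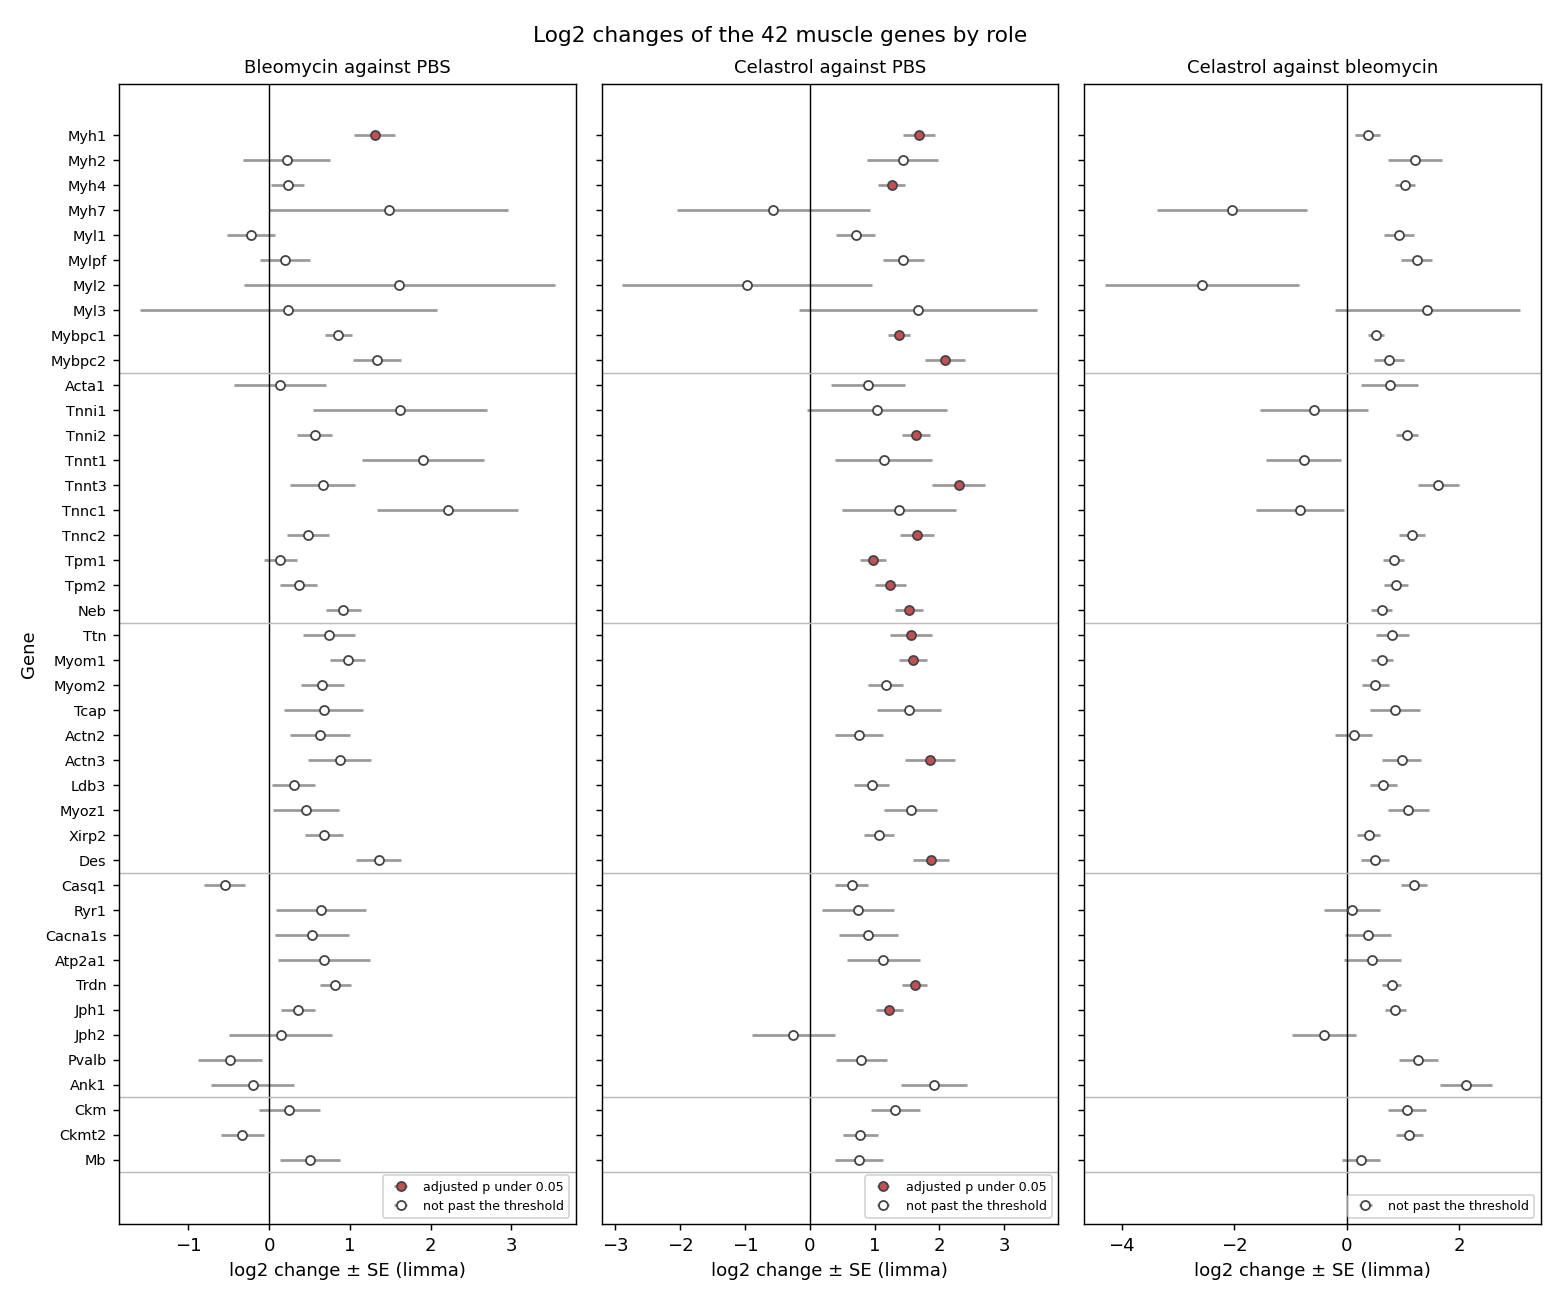
The log2 change of each muscle gene with its standard error is shown for the 3 comparisons, with genes ordered by role. Filled points passed an adjusted p of 0.05: Myh1 in bleomycin against PBS, 16 genes in celastrol against PBS and none in celastrol against bleomycin. The horizontal scales of the 3 panels differ.

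In the thick filament, the mean levels per kilobase of exon were 14219 for Myh4, 4594 for Myh1, 825.2 for Myh2 and 161.2 for Myh7. The libraries of the fast chains Myh4 and Myh1 all lay above those of slow Myh7 on that scale, while the range of Myh2 (229.8 to 1375) overlapped that of Myh7 (3.60 to 659.4). Myh4, the heavy chain of the fastest mouse fibres (type IIB, chr11:67238029-67260446, plus strand), had values of 53731 and 53459.6 in PBS, 77403, 56208 and 57001 in Bleomycin and 131513, 119264 and 135756 in Celastrol. All 3 celastrol libraries lay above every other library. The bleomycin libraries lay above the PBS libraries, Bleomycin 3 and 4 only just and Bleomycin 2 by more. Myh4 rose in celastrol against PBS by 1.26 ± 0.21 (adjusted p = 0.0176), a 2.4-fold change, and the difference between bleomycin and PBS was 0.23 ± 0.21 (adjusted p = 1). The celastrol call on Myh4 was lost without PBS 2, PBS 3 or Celastrol 5, where the adjusted p was 0.0952, 0.116 and 0.0771.

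Myh1, the heavy chain of type IIX fibres (chr11:67200052-67224575, plus strand), had values of 12751 and 11297 in PBS, 34264, 24581 and 31180.1 in Bleomycin and 52965, 28679 and 37746 in Celastrol. Every treated library exceeded both PBS libraries, and the bleomycin and celastrol ranges overlapped. Its log2 change was 1.31 ± 0.25 (adjusted p = 0.0499) in bleomycin and 1.68 ± 0.25 (adjusted p = 0.0128) in celastrol, both against PBS. It had the smallest p of all members in bleomycin against PBS, and its difference between celastrol and bleomycin was 0.38 (adjusted p = 0.975). Myh2, the heavy chain of type IIA fibres (chr11:67171027-67197517, plus strand), was read at 6427 and 1640.4 in PBS, 6587, 4095 and 1992 in Bleomycin and 7934, 9812 and 8626 in Celastrol. The PBS libraries of Myh2 differed from each other by more than the PBS and Bleomycin means did, and only the celastrol libraries stayed in a narrow range above all others. Its changes were 0.22 (adjusted p = 1) in bleomycin and 1.43 (adjusted p = 0.308) in celastrol, the former of opposite sign without PBS 3 (-0.77) or without Bleomycin 2 (-0.18).

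Myh7 (chr14:54970684-54994626, minus strand) is the heavy chain of slow fibres and also a heart form. It stood at 453 and 569 in PBS, 5681, 272 and 1841 in Bleomycin and 31, 1072 and 1193 in Celastrol. The 3 groups overlapped, and the spread was widest within the treated groups, from the highest value in Bleomycin 2 to the lowest in Celastrol 2. Its change in celastrol against PBS was -0.56 ± 1.48 (adjusted p = 0.922), and 1.15 without Celastrol 2 (adjusted p = 0.732, and 0.732 to 0.972 over all 8 such fits). In bleomycin against PBS it was 1.48 ± 1.48 (adjusted p = 1), and 0.48 without Bleomycin 2.

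Myosin-binding protein C sits on the thick filament and holds the myosin heads in order. Mybpc1, its slow type that fast fibres also express (chr10:88518279-88605152, minus strand), was read at 6401 and 6256 in PBS, 12615, 9532 and 12474 in Bleomycin and 16449.6, 16484 and 16389.7 in Celastrol. The 3 groups did not overlap, and the celastrol libraries lay close together, with a mean of 16441 ± 47.6 (SD, n = 3). Its change was 1.38 ± 0.17 (adjusted p = 0.00521) in celastrol and 0.86 ± 0.17 (adjusted p = 0.0523) in bleomycin, both against PBS. Mybpc2, the fast type, was read at 2069 and 1907 in PBS, 6601, 3859 and 4962 in Bleomycin and 7691, 6075 and 12842 in Celastrol. Both treated groups lay above PBS, with a change of 2.09 ± 0.30 (adjusted p = 0.0119) in celastrol and 1.34 ± 0.30 (adjusted p = 0.0968) in bleomycin. Its celastrol call was lost without PBS 2, PBS 3 or Celastrol 5, as was that on Myh1, and the call on Mybpc1 without PBS 3.

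The light chains that wrap the myosin neck did not pass the test in any comparison. The fast regulatory chain Mylpf was read at 2883 to 2994 in PBS, 2993 to 4155 in Bleomycin and 6029 to 13484 in Celastrol, with 1.44 (adjusted p = 0.0573) in celastrol against PBS, and the fast essential chain Myl1 at 5478 to 6611 in PBS, 4562 to 6077 in Bleomycin and 6989 to 15938 in Celastrol. The slow chains Myl2 and Myl3 were low and scattered. Myl2 was listed at 0 in Celastrol 2 and reached 490.3 in Bleomycin 2, and Myl3 was listed at 0 in Bleomycin 3 and reached 242 in Bleomycin 2. The celastrol change of Myl2 against PBS was -0.97 (adjusted p = 0.891), and 1.5 without Celastrol 2. Of the 10 thick filament genes, 4 rose in celastrol against PBS (Myh1, Myh4, Mybpc1, Mybpc2; median log2 change 1.40) and 1 in bleomycin against PBS. The bleomycin median of 0.55 was 1.04 without PBS 2, 0.28 without Bleomycin 2 and 1.22 without Bleomycin 3.

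**Figure D3:**
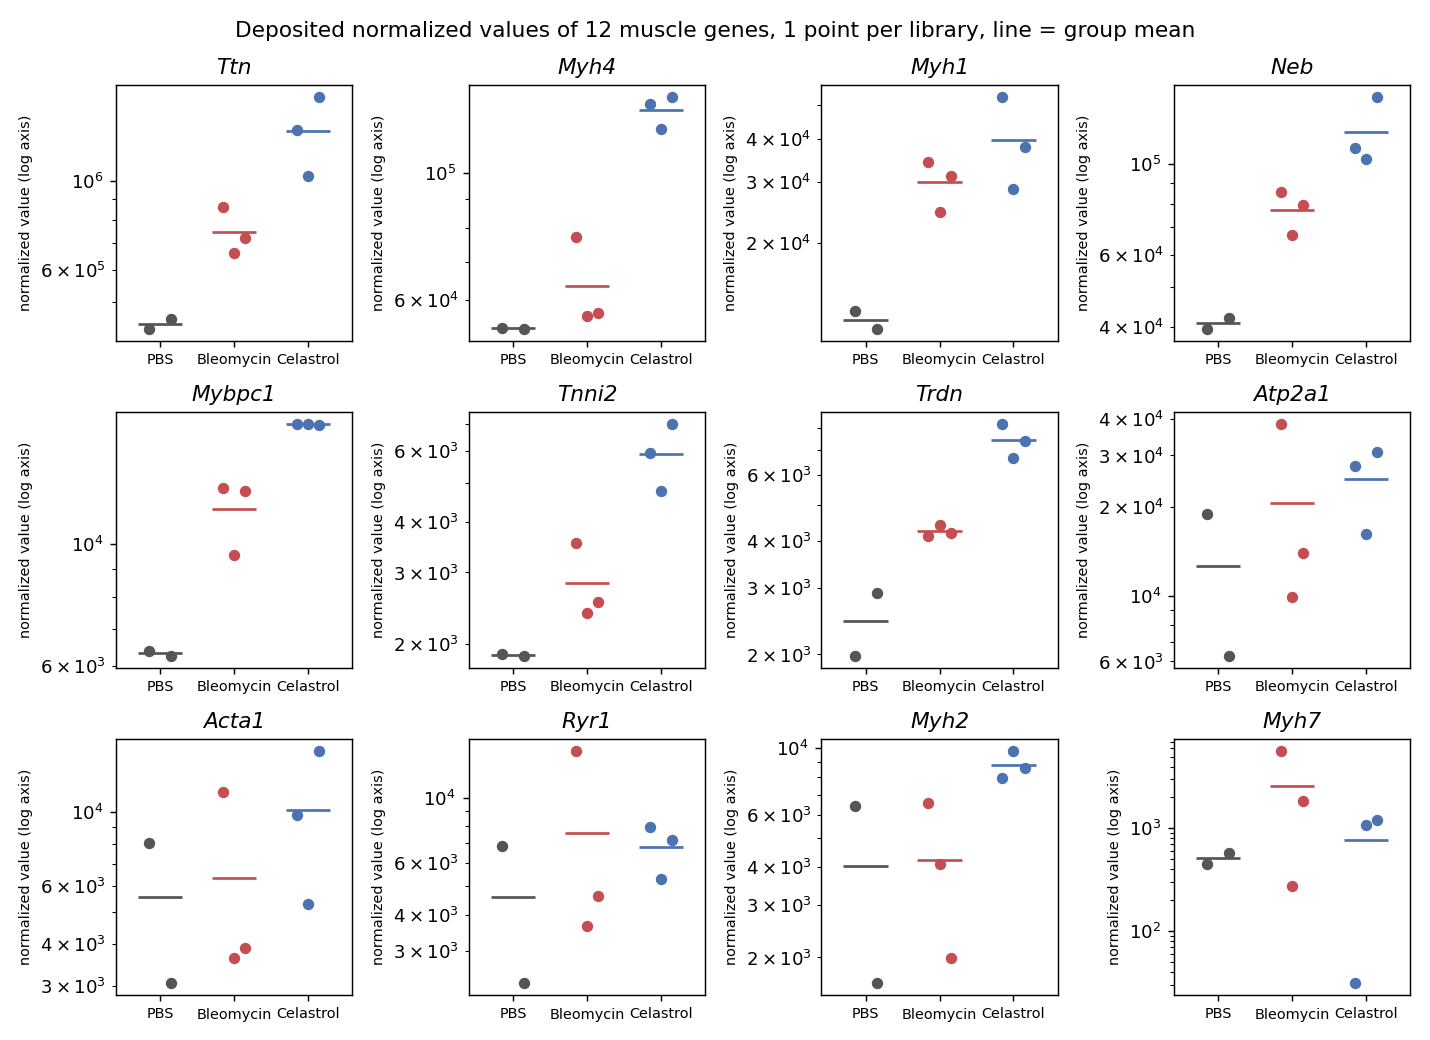
Each panel shows 1 gene and each point 1 library, with the group mean as a line, on a log axis of normalized value. Ttn, Myh4, Neb, Mybpc1, Tnni2 and Trdn step up from PBS to Bleomycin to Celastrol without overlap. Myh1 is above PBS in both treated groups, which overlap each other. Atp2a1, Acta1 and Ryr1 overlap in all 3 groups. Myh2 is above the other libraries in Celastrol, and Myh7 ranges from 31 in Celastrol 2 to 5681 in Bleomycin 2.

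In the thin filament, 6 of 10 genes rose in celastrol against PBS (Neb, Tnni2, Tnnt3, Tnnc2, Tpm1 and Tpm2; median of the 10 log2 changes 1.31) and none in bleomycin against PBS (median 0.61). Nebulin, Neb, spans the thin filament and sets its length. It was read at 39482 and 41926 in PBS, 85374, 67102 and 79108 in Bleomycin and 109589, 102756 and 146097 in Celastrol, with the 3 groups in separate ranges. Its change was 1.54 ± 0.22 (adjusted p = 0.0105) in celastrol and 0.92 ± 0.22 (adjusted p = 0.106) in bleomycin, both against PBS. Tnni2, the fast troponin I that blocks actin at rest (chr7:142441808-142444410, plus strand), was read at 1889 and 1864 in PBS, 3543, 2388 and 2530.1 in Bleomycin and 5929, 4774 and 6997 in Celastrol. The PBS libraries were nearly equal, all treated libraries lay above them, and the celastrol libraries lay above the bleomycin libraries. Tnni2 rose by 1.63 ± 0.22 (adjusted p = 0.0084) in celastrol against PBS, a 3.11-fold change, beside 0.57 ± 0.22 (adjusted p = 0.569) in bleomycin. The celastrol calls on Neb and Tnni2 were lost without PBS 3 or Celastrol 5, and that on Neb also without PBS 2.

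The other fast troponins also rose in celastrol. Tnnc2, the fast troponin C that binds calcium, was read at 938 and 1599.9 in PBS, 1745, 1635 and 1760.0 in Bleomycin and 3613, 3128 and 5058 in Celastrol, and rose by 1.65 ± 0.26 (adjusted p = 0.0156) against PBS. Of its exonic bases, 74% lie under an exon of Ube2c on the other strand. Ube2c was read at no more than 108.4, against 938.2 or more for Tnnc2, and the use of strand in counting is not given in the sources used here. Tnnt3, the fast troponin T that ties the complex to tropomyosin, ran at 104 to 137 in PBS, 132 to 288 in Bleomycin and 489 to 803 in Celastrol and rose by 2.29 ± 0.41 (adjusted p = 0.025), 4.91-fold, the largest log2 change against PBS of any of the 16 called members. Tpm1, an alpha tropomyosin that smooth muscle and other cells express too, was read at 6301 and 6575 in PBS, 7306, 7502 and 6501 in Bleomycin and 11178, 10694 and 16914 in Celastrol and rose by 0.97 ± 0.21 (adjusted p = 0.0493). Tpm2, beta tropomyosin, ran at 10362 to 13257 in PBS, 13284 to 18141 in Bleomycin and 23409 to 36862 in Celastrol and rose by 1.24 ± 0.23 (adjusted p = 0.0319). The call on Tpm1 held without Bleomycin 2 or Celastrol 3 and was lost in the other 6 fits without 1 library. Those on Tnnt3 and Tpm2 were lost without PBS 2, PBS 3, Bleomycin 4, Celastrol 2 or Celastrol 5, and that on Tnnc2 without PBS 2 or Celastrol 5.

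Acta1, the actin of the skeletal muscle thin filament (chr8:123891769-123894751, minus strand), did not pass the test. It was read at 8056 and 3055 in PBS, 11507, 3631 and 3910.2 in Bleomycin and 9838, 5297 and 15296 in Celastrol. The groups overlapped, with PBS 2 above Bleomycin 3, Bleomycin 4 and Celastrol 3, and the change was 0.90 ± 0.57 (adjusted p = 0.59) in celastrol and 0.14 ± 0.57 (adjusted p = 1) in bleomycin. The bleomycin change of Acta1 took the other sign without PBS 3 (-0.56) or Bleomycin 2 (-0.40). The slow troponin I, Tnni1 (chr1:135779434-135810989, plus strand), was read at 38.3 and 20 in PBS, 239, 19.6 and 138 in Bleomycin and 52.5, 25.3 and 144 in Celastrol. Its changes were 1.04 ± 1.08 (adjusted p = 0.768) in celastrol and 1.62 ± 1.08 (adjusted p = 1) in bleomycin. Bleomycin 2, Bleomycin 4 and Celastrol 5 stood above the other 5 libraries. The slow troponins T and C, Tnnt1 and Tnnc1, had the 2 largest log2 changes of the 10 thin filament genes in bleomycin against PBS, 1.91 (adjusted p = 0.587) and 2.21 (adjusted p = 0.594), with neither past the threshold.

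At the Z-disc, the M-band and along titin, which ties both together, all 10 genes had changes above 0 in both comparisons with PBS, with 4 called in celastrol (Ttn, Myom1, Actn3, Des; median 1.54) and none in bleomycin (median 0.68). Ttn is the spring that centres the thick filament (chr2:76703980-76982547, minus strand, 116825 exonic bases). It was read at 429962 and 454325 in PBS, 858538, 661035 and 720113 in Bleomycin and 1332090, 1027910 and 1613920 in Celastrol. The 3 groups did not overlap, and the change was 1.56 ± 0.32 (adjusted p = 0.0458) in celastrol, 0.75 ± 0.32 (adjusted p = 0.677) in bleomycin and 0.81 ± 0.29 (adjusted p = 0.975) between the treated groups. The celastrol call held in 3 of the 8 fits without 1 library, those without Bleomycin 2, Bleomycin 3 or Celastrol 3.

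Myomesin 1, Myom1, crosslinks thick filaments at the M-band and was read at 4273 and 4245 in PBS, 9484, 6410 and 9593 in Bleomycin and 15008, 10510 and 13433 in Celastrol. It rose by 1.59 ± 0.22 (adjusted p = 0.00912) in celastrol, and its bleomycin change was 0.97 ± 0.22 (adjusted p = 0.0924). Des, desmin, the intermediate filament that links neighbouring Z-discs and is also made by smooth muscle, was read at 4107 and 2648 in PBS, 10935, 7348 and 7519 in Bleomycin and 12028, 9093 and 15956 in Celastrol. It rose by 1.87 ± 0.28 (adjusted p = 0.0127) in celastrol beside 1.36 ± 0.28 (adjusted p = 0.0641) in bleomycin. These 2 genes kept their celastrol call in 6 of the 8 fits without 1 library, all but those without PBS 3 or Celastrol 5. Xirp2, an actin-binding protein of the cell ends and Z-disc, was read at 14191 and 22797 in PBS, 29659, 26786 and 30047 in Bleomycin and 29749, 40486 and 44431 in Celastrol, with every treated library above both PBS libraries and changes of 0.68 (adjusted p = 0.442) and 1.07 (adjusted p = 0.0625).

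Actn3, the alpha-actinin of fast fibre Z-discs, ran at 1989 to 2438 in PBS, 2622 to 6573 in Bleomycin and 6199 to 12913 in Celastrol and rose by 1.85 ± 0.39 (adjusted p = 0.0475) in celastrol, a call that held without Bleomycin 2 or 3 and was lost in the other 6 fits without 1 library. Its partner Actn2, which all fibres express, ran at 1069 to 2473 in PBS, 2056 to 3714 in Bleomycin and 2093 to 3349.6 in Celastrol and overlapped in all 3 groups, with 0.76 (adjusted p = 0.458). The remaining Z-disc and M-band genes Myom2, Tcap, Ldb3 and Myoz1 had celastrol changes of 0.95 (Ldb3) to 1.55 (Myoz1), all with celastrol libraries above PBS and none past the threshold.

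Calcium handling genes were mixed: 2 of 9 rose in celastrol against PBS (Trdn and Jph1) and none in bleomycin. The celastrol median of 0.90 was 0.57 without PBS 3, and the bleomycin median of 0.36 was -0.13 without PBS 3 and 0.04 without Bleomycin 2. Trdn, triadin, anchors calsequestrin to the release channel (chr10:33080554-33476709, plus strand). It was read at 1981 and 2922 in PBS, 4135, 4413 and 4199.6 in Bleomycin and 8204, 6642 and 7401 in Celastrol. The 3 groups formed separate ranges, and Trdn had the smallest p of all members in celastrol against PBS, 1.62 ± 0.19 (adjusted p = 0.00483), a 3.07-fold change. Its bleomycin change was 0.82 ± 0.19 (adjusted p = 0.102). Jph1, junctophilin 1, holds the reticulum against the surface membrane and was read at 755 and 812 in PBS, 1232, 907 and 913 in Bleomycin and 2004, 1626 and 1894 in Celastrol. It rose by 1.23 ± 0.21 (adjusted p = 0.0206) in celastrol, a call lost without PBS 2, PBS 3, Celastrol 2 or Celastrol 5, while bleomycin gave 0.36 ± 0.21 (adjusted p = 0.976).

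The release channel and the pump showed no such steps. Ryr1, the ryanodine receptor through which calcium leaves the reticulum (chr7:29003344-29125179, minus strand), was read at 6859 and 2337 in PBS, 14410.1, 3665 and 4622 in Bleomycin and 7921, 5269 and 7161 in Celastrol. Bleomycin 2 was the highest library and PBS 3 the lowest, and the 3 groups overlapped. Its changes were 0.64 ± 0.55 (adjusted p = 1) in bleomycin, 0.74 ± 0.55 (adjusted p = 0.657) in celastrol and 0.10 ± 0.49 (adjusted p = 0.996) between the treated groups. Without PBS 3 the changes of Ryr1 against PBS took the other sign, at -0.13 in bleomycin and -0.04 in celastrol. Atp2a1, the SERCA1 pump that returns calcium in fast fibres (chr7:126445858-126463108, minus strand), was read at 19054 and 6258 in PBS, 38445, 9911 and 13964 in Bleomycin and 27711, 16189 and 30787 in Celastrol. It also peaked in Bleomycin 2 with PBS 3 lowest, with differences from PBS of 0.68 ± 0.57 (adjusted p = 1) in bleomycin, which was -0.13 without PBS 3, and 1.14 ± 0.57 (adjusted p = 0.476) in celastrol. An exon of Rabep2 on the other strand covers 21.9% of its exonic bases, and Rabep2 was read at no more than 395.3. Cacna1s, the voltage sensor that opens the channel, ran at 705 to 1296 in PBS, 860.1 to 2643 in Bleomycin and 1287 to 2601 in Celastrol and overlapped likewise.

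Casq1, calsequestrin, stores calcium inside the reticulum (chr1:172209894-172219868, minus strand) and was read at 3136 and 3822 in PBS, 3309, 2332 and 1705 in Bleomycin and 5285, 4734 and 6350.3 in Celastrol. Bleomycin 3 and 4 were the lowest libraries and the celastrol libraries the highest, so the change was -0.55 ± 0.26 (adjusted p = 0.772) in bleomycin, 0.65 ± 0.26 (adjusted p = 0.345) in celastrol and 1.20 ± 0.23 (adjusted p = 0.975) between them. Pvalb, parvalbumin, which soaks up calcium in fast fibres (chr15:78191114-78206400, minus strand), was read at 3166 and 2315 in PBS, 3331, 1427 and 1529 in Bleomycin and 4335, 3281 and 7263 in Celastrol. It was likewise lowest in Bleomycin 3 and 4, with -0.48 (adjusted p = 1) in bleomycin and 0.79 (adjusted p = 0.473) in celastrol, although the PBS and celastrol libraries did not overlap. Ank1, whose short muscle form anchors the reticulum at the sarcomere, was read at 211 and 150.1 in PBS, 274, 68 and 197 in Bleomycin and 717, 606 and 707 in Celastrol. The celastrol libraries stood apart from the other 5, at a change of 1.92 ± 0.51 (adjusted p = 0.126) against PBS and 2.12 ± 0.46 (adjusted p = 0.975) against bleomycin, and the gene also has red blood cell forms, which its value does not separate. Jph2, the junctophilin shared with the heart, ran at 188 to 311 in PBS, 163 to 676 in Bleomycin and 121 to 337 in Celastrol, with a change of -0.26 (adjusted p = 0.917) in celastrol against PBS. Its sign turned without PBS 2 (0.10) or Celastrol 2 (0.11).

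None of the 3 energy and oxygen genes was called in any comparison. Ckm, the creatine kinase at the M-band that regenerates ATP (chr7:19404776-19422841, plus strand), was read at 3683 and 2607 in PBS, 6019, 2689 and 3097 in Bleomycin and 6208, 6046 and 12262 in Celastrol. The celastrol libraries lay above all others and Celastrol 5 was the highest, with a change of 1.32 ± 0.38 (adjusted p = 0.158) against PBS beside 0.25 ± 0.38 (adjusted p = 1) for bleomycin. Ckmt2, its mitochondrial partner, was read at 1088 and 900.4 in PBS, 1062, 789 and 578 in Bleomycin and 1416, 1949 and 1765 in Celastrol. Its celastrol libraries were also the highest, at 0.78 ± 0.27 (adjusted p = 0.257) against PBS and 1.11 ± 0.24 (adjusted p = 0.975) against bleomycin. Mb, myoglobin, which stores oxygen in oxidative fibres (chr15:77015487-77050670, minus strand), was read at 2881 and 1503 in PBS, 3504, 3128 and 2376 in Bleomycin and 2208, 3595 and 5533 in Celastrol. Its 3 groups overlapped, with 0.76 ± 0.37 (adjusted p = 0.462) in celastrol against PBS.

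Levels of different genes were ranked per kilobase of exon, over 41 members with a GENCODE length. The sums of lists and the share of Ttn in the members' sum are not corrected for length. That length joins the exons of all annotated transcripts of a gene, so a gene with several forms can be placed too low. It was 13527 bases for Ank1, and 8616 bases for Myh7, whose coding sequence has 5805. The same limit holds for the shares per kilobase given below. On that scale the order of the mean level was Myh4 (14219), Ttn (7595), Tpm2 (6633), Atp2a1 (5835), Acta1 (4931), Mylpf (4928) and Myh1 (4594). The ranges over the libraries overlapped from each of these 7 genes to the next, as with Myh4 (8886 to 22566) and Ttn (3680.4 to 13815) or Atp2a1 (1799.9 to 11057) and Acta1 (1989 to 9958). At the bottom were the slow genes Myl3 (36.9) and Tnni1 (23.5), with Ank1 (27.1) between them. Myh7 ranked 36 of the 41, at 161.2 with a range of 3.60 to 659.4.

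The 4 adult myosin heavy chain genes were compared by the share of each in their sum per kilobase. These are shares of RNA and not counts of fibres. Reads shared between Myh1, Myh2 and Myh4 could shift them, and how such reads were counted is not given. Myh4 held 75.1% and 81.1% in PBS, 64.8%, 67.6% and 63.7% in Bleomycin and 69.8%, 76.7% and 75.6% in Celastrol. The bleomycin libraries were the lowest 3 of the 8, at 65.4% ± 2.02 (SD, n = 3) against 78.1% ± 4.22 (n = 2) in PBS and 74.0% ± 3.71 (n = 3) in Celastrol. Myh1 took the opposite order, with 16.9% and 16.2% in PBS, 27.2%, 28% and 33.0% in Bleomycin and 26.6%, 17.5% and 19.9% in Celastrol. The share of Myh1 was thus higher in every bleomycin library than in every other library, while Celastrol 2 came close to them. Myh2 held 1.88% to 7.57% with overlapping groups, and Myh7 3.32% in Bleomycin 2, 1.44% in Bleomycin 4 and no more than 0.603% elsewhere. These shares were not tested, since a two-sided exact permutation test cannot go below 0.2 with 2 libraries against 3, or below 0.1 with 3 against 3.

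**Figure D4:**
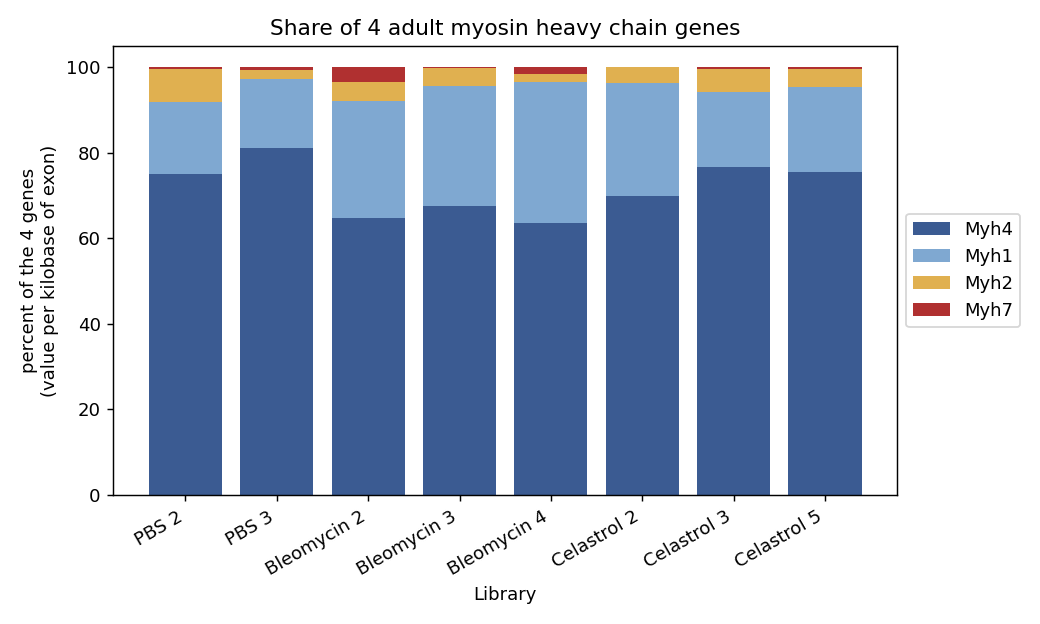
Each bar is 1 library and is divided by the share of the 4 adult myosin heavy chain genes, in percent of their summed value per kilobase of exon. Myh4 is the largest part of every bar, from 63.7% in Bleomycin 4 to 81.1% in PBS 3. Myh1 is largest in the 3 bleomycin bars, and Myh7 is visible chiefly in Bleomycin 2 and 4.

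Slow and fast forms of the same part moved differently between libraries. In all 6 slow and fast pairs examined (Myh7 with Myh4, Tnni1 with Tnni2, Tnnt1 with Tnnt3, Tnnc1 with Tnnc2, Myl3 with Myl1 and Myl2 with Mylpf), the slow share was highest in Bleomycin 2. In that library it was 4.88% for Myh7, 2.73% for Tnni1, 3.88% for Myl3 and 6.04% for Myl2. Tnnt1 held 79.8% of its pair there and 71.3% in Bleomycin 4, against 39.6% and 46.7% in PBS and 37.3% in Bleomycin 3. In Celastrol it held 10.5%, 42.7% and 31.0%. Its fast partner Tnnt3 was low, at a mean of 209.8 per kilobase against 2498 for Tnni2 and 3043 for Tnnc2. The slow troponin C, Tnnc1, held 17.1% in Bleomycin 2 and 13.4% in Bleomycin 4, against 2.77% to 4.96% in PBS and Bleomycin 3 and 1.00% to 5.61% in Celastrol. Bleomycin 2 and 4 had the 2 highest shares of Tnnt1 and Tnnc1 in their pairs. The shares in Bleomycin 3 were close to those in PBS, so the bleomycin group was not uniform. The lowest slow share was in Celastrol 2 for 4 of the 6 pairs, in Celastrol 3 for Tnni1 and in Bleomycin 3 for Myl3.

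As lists, the 14 fast fibre genes and the 6 slow fibre genes differed in their counts. Of the fast genes, 7 rose in celastrol against PBS (median 1.5) and 1 in bleomycin against PBS (median 0.47, and 0.20 without PBS 3 or 0.10 without Bleomycin 2). None of the 6 slow genes was called. Their median in celastrol against PBS was 1.09, from 0.53 without Celastrol 5 and 0.72 without PBS 2 to 1.74 without Celastrol 2. In bleomycin against PBS it was 1.62, from 0.90 without Bleomycin 2 to 2.67 without Bleomycin 3. The summed values of the slow genes were 684.4 and 948.5 in PBS, 7843, 681.0 and 3328 in Bleomycin and 255.9, 2044 and 2495 in Celastrol. The slow sum spanned from the lowest library, Celastrol 2, to the highest, Bleomycin 2, with the 3 groups overlapping. The fast sum was 116005 and 95061 in PBS, 193399, 117789 and 128928 in Bleomycin and 269537, 217218 and 296849 in Celastrol, with no overlap between groups. The difference between the fast and the slow lists was not tested.

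**Figure D5:**
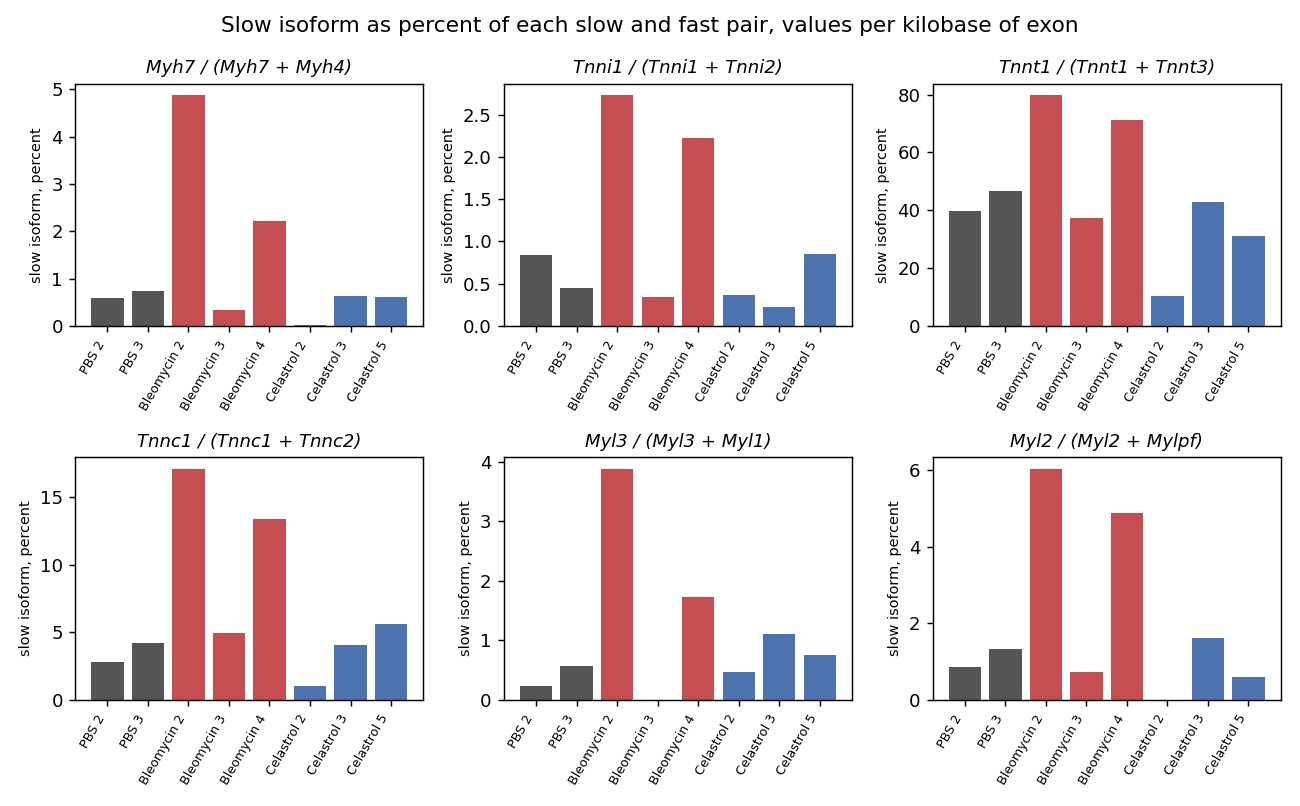
Each panel is 1 pair of a slow and a fast gene for the same sarcomere part, and each bar is the slow gene's percent of the pair's summed value per kilobase of exon in 1 library. The vertical scales differ between panels. Bleomycin 2 is the tallest bar of all 6 panels and Bleomycin 4 the next tallest, and no bar is drawn where the slow gene is listed at 0, Myl3 in Bleomycin 3 and Myl2 in Celastrol 2.

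Single libraries ranked as follows over the members. Celastrol 5 held the highest value of 22 of the 42 genes, Bleomycin 2 of 11, Celastrol 2 of 6 and Celastrol 3 of 3. The lowest value lay in PBS 3 for 21 genes, in PBS 2 for 9, in Bleomycin 3 for 5, in Celastrol 2 for 4 and in Bleomycin 4 for 3. The median deviation from each gene's mean (log2 scale) was -0.51 and -0.84 in PBS 2 and 3, 0.37, -0.47 and -0.28 in Bleomycin 2, 3 and 4, and 0.52, 0.42 and 0.95 in Celastrol 2, 3 and 5. By this median Bleomycin 2 stood just below the celastrol libraries, and Bleomycin 3 and 4 nearer to PBS 2. For the fast genes alone the median was 0.14 in Bleomycin 2, against 0.67, 0.48 and 1.23 in Celastrol 2, 3 and 5. For the slow genes alone it was 2.38 in Bleomycin 2 and 1.28 in Bleomycin 4, against -1.64 in Celastrol 2.

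Other genes of the same muscle systems were read from lists beside the 42 members, with calls from the fit of all 8 libraries. Over all genes tested, 0.824% rose in celastrol and 0.453% in bleomycin, both against PBS. Without Celastrol 5 the share of all genes that rose in celastrol against PBS was 0.109%. Of 41 other sarcomere genes, 6 rose and none fell in celastrol against PBS (median 0.83, and 1.32 without PBS 2). Cmya5, a costamere scaffold, rose by 1.73 ± 0.19 (adjusted p = 0.00379), and its values were 8224 and 7709 in PBS, 20450.5, 16118 and 17644 in Bleomycin and 26418, 22412 and 31363 in Celastrol. Ankrd23, a titin-binding stretch sensor, rose by 2.13 ± 0.25 (adjusted p = 0.00483) and Myot, the Z-disc protein myotilin, by 1.72 ± 0.25 (adjusted p = 0.0119). In bleomycin against PBS, 2 of the 41 rose, Cmya5 by 1.18 ± 0.19 (adjusted p = 0.024) and Ankrd23 by 1.30 ± 0.25 (adjusted p = 0.0471), with Lmod2, a leiomodin that elongates thin filaments, at 1.37 (adjusted p = 0.0686).

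Of 27 tested genes of calcium and excitation, 2 rose in celastrol against PBS (median 0.62, and 0.94 without PBS 2, 0.30 without PBS 3 or 0.41 without Celastrol 5): Hrc, the histidine-rich calcium-binding protein of the reticulum, by 1.16 ± 0.18 (adjusted p = 0.0161) and Casq2, the calsequestrin of heart and slow fibres, by 2.61 ± 0.54 (adjusted p = 0.0459). Cacna2d1, a subunit of the calcium channel, stood at 1.02 (adjusted p = 0.0624). Of 25 glycolysis and energy genes, 4 rose (median 0.90, and 0.59 without PBS 3), among them Ppp1r3a, the glycogen-binding subunit of the muscle phosphatase, by 1.48 ± 0.17 (adjusted p = 0.00483), Ppp1r3c, a glycogen-targeting subunit of the same phosphatase, by 2.24 ± 0.31 (adjusted p = 0.00966) and Ldha, lactate dehydrogenase A, by 1.08 ± 0.22 (adjusted p = 0.0434). Neither list had a call in bleomycin against PBS, where Casq2 stood at 2.01 (adjusted p = 0.182) and Ppp1r3a at 0.85 (adjusted p = 0.0618).

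Of 17 genes of the dystrophin complex and the neuromuscular junction, 2 rose in celastrol against PBS, among them Dmd, dystrophin, by 1.22 ± 0.16 (adjusted p = 0.00844). The median of this list, 0.26, took the other sign without PBS 3 (-0.25) and ran up to 0.43 without Celastrol 3, with 0.02 without Celastrol 2 and 0.12 without Celastrol 5. Chrnb1, an acetylcholine receptor subunit, stood at 1.5 (adjusted p = 0.141). Among 15 myogenic regulators tested none was called in any comparison. Their medians against PBS, 0.24 in celastrol and -0.03 in bleomycin, both changed sign when 1 library was left out, to -0.04 without Celastrol 5 and to 0.06 without PBS 2. Myf6, the MyoD family member of mature fibres, was read at 61.2 and 17.7 in PBS, 128, 169.9 and 182 in Bleomycin and 162, 186 and 272 in Celastrol, with every treated library above both PBS libraries and changes of 2.57 (adjusted p = 0.0633) in celastrol and 2.23 (adjusted p = 0.158) in bleomycin. Mef2c stood at 0.74 (adjusted p = 0.172) and Mef2d at -0.88 (adjusted p = 0.387) in celastrol. In celastrol against bleomycin none of these 5 lists had a call.

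Markers of other cell types were measured beside the muscle genes. The fibroblast markers were lower in both treated groups: 6 of 8 fell in bleomycin and 7 of 8 in celastrol against PBS. Over all genes tested, 0.224% fell in bleomycin and 0.543% in celastrol. Such calls depended on single libraries. Over all genes, 1 fell in bleomycin against PBS without Bleomycin 4, and 14 fell in celastrol against PBS without Celastrol 5. All 8 markers lay below both PBS libraries in every treated library. That order held for 11.6% of all genes in bleomycin and 13.7% in celastrol. Their summed level was 765520 and 358763 in PBS, 33829 to 106862 in Bleomycin and 31609.5 to 79668 in Celastrol, and none was at 0 in any library. Col3a1, the type III collagen chain, fell by 3.59 ± 0.58 (adjusted p = 0.0274) on the log2 scale in bleomycin and by 3.65 ± 0.58 (adjusted p = 0.0167) in celastrol. Their part in the muscle result was not tested.

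The 7 heart markers in the table had no call and summed levels of 447.6 to 962.7 over all libraries. Myh6, a heart myosin, was read at 0.695 and 0 in PBS, 6.08, 0 and 3.75 in Bleomycin and 83.9, 51.5 and 9.57 in Celastrol. Mybpc3, the cardiac myosin-binding protein, was at 0 in 4 of the 8 libraries. Nppa, Nppb and Myl7 were not analysed here. The 10 smooth muscle markers had no call, with sums of 10608 to 11960.3 in PBS, 9708 to 17034 in Bleomycin and 13141 to 14168 in Celastrol. The 4 satellite cell markers in the table (Myf5 and Calcr were not analysed here) had no call and sums of 492.8 and 593.7 in PBS, 720.5 to 1281 in Bleomycin and 745.8 to 902.9 in Celastrol, with Pax7 at 0 in PBS 3, Bleomycin 3 and Celastrol 3. None of the adipocyte, keratinocyte, endothelial, macrophage, nerve and hair follicle markers was called in the 3 comparisons. Keratinocyte markers summed to 463661 and 232307 in PBS, 198812 to 447466 in Bleomycin and 242671 to 345751 in Celastrol, with the groups overlapping.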

How the data were processed

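Total RNA from 8 skin homogenates was sequenced with a total RNA library kit, per the labels' protocols. The deposited values are a normalized signal: per the file headers, the authors normalized estimated counts per gene to DESeq2 size factors of the poscounts type. Partek 10.0.22, STAR 2.7.3a and mm10 are named, per the submitters' processing notes. Settings, annotation and use of strand are not given in the sources used here. Below 1000 reads, 58.9% to 67.6% of values per library fell within 0.03 reads of a whole read, so whole reads were not recovered and no count model was used.

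The filter kept 23185 genes that reached 10 in 2 or more libraries and removed 1427. limma 3.58.1 (R 4.3.3) with a trended variance was fitted to log2(value + 1) of all 8 libraries in 3 groups, with two-sided tests and Benjamini-Hochberg adjustment over all tested genes. The script was run on simulated data with a spread set below that of these data and with changes larger than most members showed. That run checks the code and not the power of the test here. Adding 1 understates changes of low genes. Summaries and figures used Python 3.11.15 with pandas 2.3.3 and matplotlib 3.10.9. Lengths and coordinates came from GENCODE M21 (41 of 42 members matched by position; Xirp2 did not). No 2 of the 8 libraries (28 pairs) held identical values.

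The members and lists were chosen with earlier results of these data known. Every library's value is given for 15 members chosen by name and for up to 6 further members with the smallest p per comparison, and other members by range and count. Outside the members, up to 3 genes with the smallest p of each muscle list were named per comparison. Alternatives were other pseudocounts, no filter, 2 rescalings, library weights, only the 2 groups compared, a replicate block and leaving out each library. A gene of the lists that passed the test is counted but not reported by name here.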

Additional observations from a re-analysis of the deposited data

How the results depend on the processing

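The members' medians and summed levels kept their direction under every alternative, but not their size: over the fits without 1 library the median ran from 0.29 to 0.84 in bleomycin against PBS, 1.05 to 1.38 in celastrol against PBS and 0.51 to 0.95 in celastrol against bleomycin. The count of 16 in celastrol against PBS ran from 13 to 19 under the other pseudocounts, filter, rescalings, library weights and the fit of the 2 groups alone, and from 2 to 20 when 1 library was left out. The count of 1 in bleomycin against PBS was 0 with a pseudocount of 0.5, 3 with a pseudocount of 10, 0 with values rescaled to the same sum, 0 with the median-of-ratios rescaling and 8 with library weights, and ran from 0 to 1 when 1 library was left out. Library weights raised the calls of bleomycin against PBS over all genes too. With them 384 genes (1.66%) rose and 327 fell, against 105 (0.453%) and 52 without weights. Celastrol against bleomycin gave 0 member calls in every fit. Rescaling to the same sum moved the median of all genes to -0.17 in celastrol against PBS, with the members' median at 1.15, and split all calls 139 higher to 138 lower in place of 191 to 126.

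The libraries share only the numbers 2 and 3. A replicate block on that number left 3 members called in celastrol against PBS (Des, Mybpc2 and Myom1) and 1 in bleomycin against PBS (Des). Calls over all genes fell as well with the block, to 0.129% higher in celastrol and 0.0474% higher in bleomycin, both against PBS. The deviations of libraries with the same number correlated at -0.00485 to 0.203, with no more than 2 pairs for any 2 groups, so the numbers were not taken to pair the libraries.

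When 1 library was left out, the change took the other sign in 8 members in bleomycin against PBS (Myh2, Myl3, Acta1, Ryr1, Atp2a1, Jph2, Ckm and Ank1), in 4 in celastrol against PBS (Myh7, Myl2, Ryr1 and Jph2) and in 7 in celastrol against bleomycin (Myl3, Actn2, Tnni1, Tnnt1, Ryr1, Jph2 and Mb). In that last comparison Cacna1s did so only with the replicate block, at -0.02. None of these values passed the threshold. Among them were Myh2 in bleomycin against PBS (-0.44 with library weights, -0.77 without PBS 3, -0.18 without Bleomycin 2, and -0.77 to 1.20 over the 8 fits without 1 library) and Myh7 in celastrol against PBS (0.17 with library weights, 1.15 without Celastrol 2, and -1.46 to 1.15 over those 8 fits); the cause was not tested beyond leaving out those libraries. The lowest estimated reads were 0 for Myl2 (in Celastrol 2), 0 for Myl3 (in Bleomycin 3) and 15 for Tnni1 (in Bleomycin 3 and Celastrol 3).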

Other observations

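Myh3, the embryonic myosin heavy chain that adult fibres express when they regenerate, was named after its values were seen. It was read at 4.9 and 0 in PBS, 206, 108 and 146 in Bleomycin and 0, 47.5 and 779 in Celastrol. All 3 bleomycin libraries lay above both PBS libraries, and the celastrol libraries ranged from 0 in Celastrol 2 to the highest of the 8 libraries in Celastrol 5. Its changes against PBS were 5.94 ± 2.13 (adjusted p = 0.47) in bleomycin and 3.79 ± 2.13 (adjusted p = 0.537) in celastrol. Myog, myogenin, which drives the last steps of muscle cell differentiation, was also chosen after its values were seen and was read at 11.1 and 5.52 in PBS, 45.4, 51 and 39.7 in Bleomycin and 0, 25.3 and 87.5 in Celastrol. It lay above PBS in every bleomycin library too, at 2.38 (adjusted p = 1). Myh8, the perinatal heavy chain, was read at 367 and 669.8 in PBS, 535, 777 and 719 in Bleomycin and 477, 687 and 1650.1 in Celastrol with the 3 groups overlapping.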
